A study of Brassica rapa with 30 samples.

Results

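FLOWERING LOCUS C (FLC) codes for a MADS-box transcription factor that holds back flowering. In Arabidopsis, where this is best known, prolonged cold (vernalization) lowers FLC transcript step by step, Polycomb proteins then keep the gene silent, and the silent state lasts after the plant is warm again. VIN3, a PHD-finger protein induced by long cold in Arabidopsis, takes part in the silencing. Brassica genomes hold several copies of FLC, and the 4 copies followed here are Bra009055 (BrFLC1), Bra028599 (BrFLC2), Bra006051 (BrFLC3) and Bra022771 (BrFLC5). They were chosen by their IDs, are 4 of the 42186 gene rows counted, and were all among the 28712 rows that passed the filter on low counts.

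RNA of whole Brassica rapa plants was sequenced from cultivar Chiifu, labelled late flowering, and cultivar LP08, labelled early flowering, with 3 libraries for each of 5 treatments and 15 per cultivar. Greenhouse plants aged 3 weeks gave the NV samples, which had no cold. Cold lasted 1 day for V1, 20 days for V20 and 40 days for V40, and V40T10 plants had 40 cold days and then 10 warm ones. By their labels, the groups of a cultivar differ only in treatment and in the time that passed. The samples hold no untreated plants of the same age as the later groups, so cold and age cannot be told apart. The study's title names a premature stop codon in the BrFLC2 transcript and early flowering of oilseed-type plants, and the question here is how each copy responded to cold in each cultivar.

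Counts on genes were 16926920 to 26595834 per library. Levels are given as CPM, a counts-per-million measure after scaling of library sizes, and 0 counts in 1 library allow a level of up to 0.0959 to 0.209 CPM, which covers counting error only. The 3 Chiifu NV libraries differed more among themselves than those of any other group, with log2 deviations from the group that had an SD over genes of 0.56 to 0.71, against 0.19 to 0.38 elsewhere. Chiifu NV replicate 3 had the highest level of each FLC copy in its group. Tests that rest on it are given with and without it, while shares of the NV level and summed levels include it. Whether the 3 libraries of a group came from different plants is not stated in the labels, so p-values reflect only how these libraries vary, possibly for technical reasons. In whole plants, fewer cells that express a gene and less RNA per cell cannot be told apart. Levels are not divided by gene length, so a copy is compared with itself across samples, and copies are compared by their changes. Both cultivars were counted on the same gene rows. Whether sequence differences between the cultivars alter the counts of a row was not tested.

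All 4 copies fell in the cold in both cultivars, and at V40 BrFLC3 had fallen further than BrFLC1 and BrFLC2. Against NV, 30 of the 32 tests (4 copies, 4 later treatments, 2 cultivars) called a lower level, at an edgeR adjusted p below 0.05. In Chiifu all 4 copies were called lower at every later treatment, where 27.9% of all genes were called lower at V1, 23.7% at V20, 24.6% at V40 and 21.3% at V40T10. In LP08, 3 copies were lower at V1, 4 at V20, 4 at V40 and 3 at V40T10, where 21.4%, 20.1%, 17.9% and 22.5% of all genes were. The median log2 change of the 4 copies at V20 was -5.27 in Chiifu and -3.19 in LP08, while the median over all genes was -0.05 and 0. The cultivars differed in BrFLC2 at every treatment and came to differ in BrFLC1 during the cold, while no difference in BrFLC3 was called before cold or at V1.

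**Figure D1:**
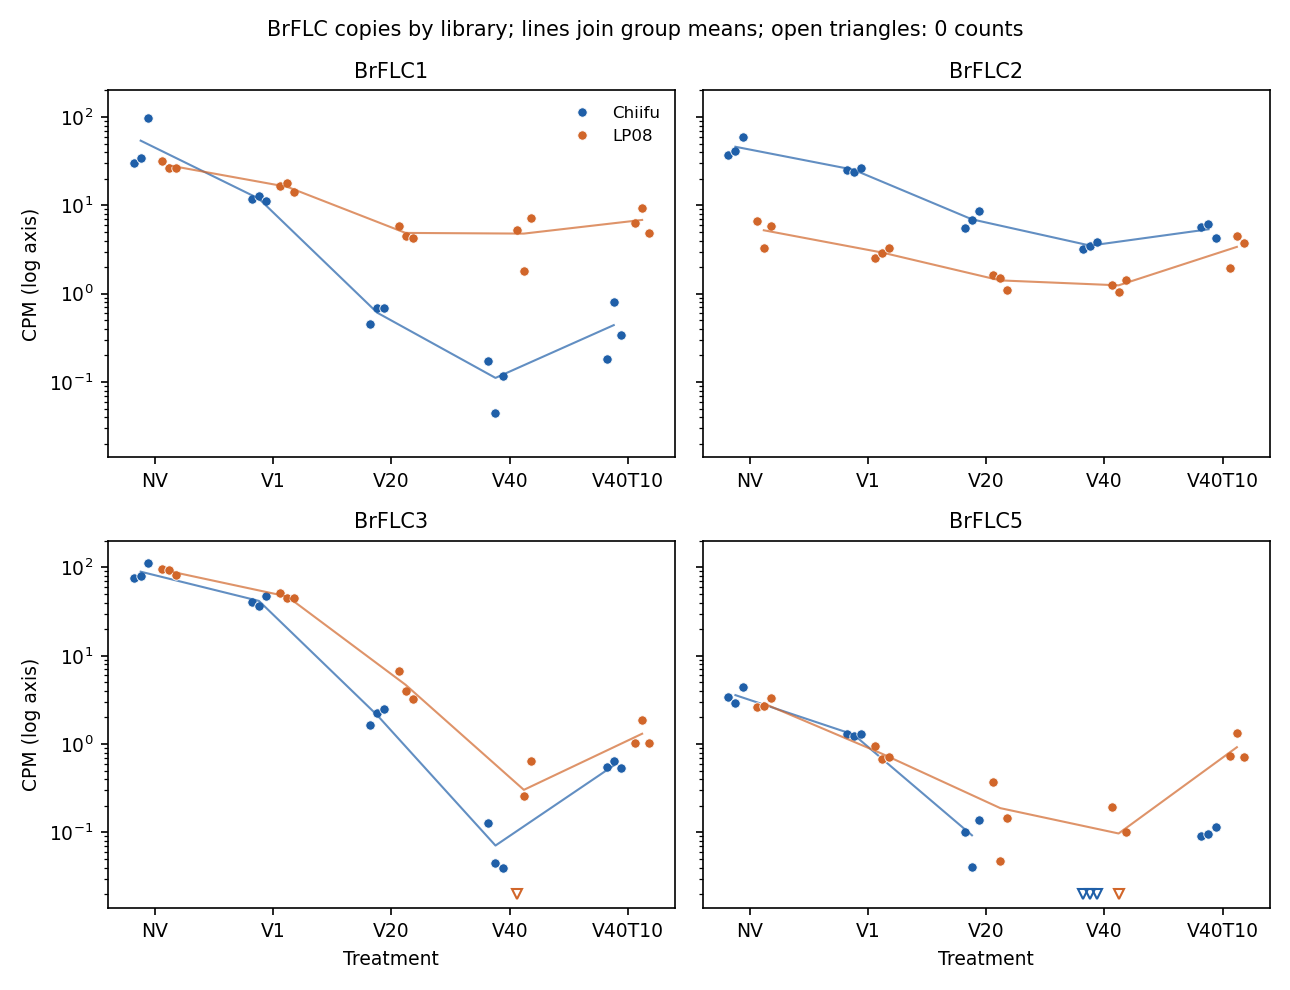
Level of each FLC copy in CPM (log axis) by treatment, 1 point per library, with lines joining group means and open triangles for libraries at 0 counts. BrFLC2 lies lower in LP08 before and during the cold, BrFLC1 lies higher in LP08 from V20 on, and BrFLC3 starts at about the same level in both cultivars.

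BrFLC1 fell in both cultivars, to a much lower level in Chiifu. In Chiifu it stood at 30.4, 34.4 and 97.5 CPM in the NV libraries and at 11.7, 12.9 and 11.2 CPM at V1. It was at 0.451, 0.694 and 0.686 CPM at V20, then at 0.172, 0.0449 and 0.118 CPM at V40, where the 3 libraries held 8 counts together. After the warm period it was at 0.182, 0.799 and 0.343 CPM. None of the 4 later groups overlapped with NV, and each mean was lower than the one before until V40.

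Against Chiifu NV the fall of BrFLC1 was 4.53-fold at V1, 86.2-fold at V20 and 456-fold at V40, with edgeR adjusted p-values of 4.297e-05, 3.128e-10 and 4.001e-11. Without Chiifu NV replicate 3, which alone stood at 97.5 CPM, these falls were 2.68-fold, 51.5-fold and 275-fold, and all 3 were still called. At V40T10 it was 114-fold below NV (log2 -6.84, SE 0.52, edgeR adjusted p 4.819e-10), or 69.1-fold without that library. The last value also rests on V40T10 replicate 2, the highest of its group, without which the log2 change was -7.64. The warm period thus left BrFLC1 at 0.816% of its mean level before cold, a mean that includes Chiifu NV replicate 3.

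In LP08, BrFLC1 stood at 32, 26.7 and 26.4 CPM in NV and at 16.5, 18.2 and 14 CPM at V1. Later it was at 5.88, 4.53 and 4.24 CPM at V20 and at 5.28, 1.82 and 7.29 CPM at V40. At V40T10 it was at 6.32, 9.4 and 4.83 CPM. The V1 libraries lay below all NV libraries, yet the log2 change of -0.81 (SE 0.37) was not called in edgeR (adjusted p 0.08453). It was called without Chiifu NV replicate 3 (adjusted p 0.01917), since all groups share 1 estimate of spread.

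The fall of BrFLC1 in LP08 was 5.79-fold at V20 and 5.89-fold at V40 (edgeR adjusted p 1.555e-05 and 2.016e-05). Between these times its fitted change was -0.03 on the log2 scale (95% interval -0.86 to 0.81), and V40 held both the lowest and the highest of the 6 libraries. At V40T10 BrFLC1 was 4.17-fold below NV in LP08, at 24.2% of its level before cold.

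BrFLC2 fell least in Chiifu and began from a low level in LP08. In Chiifu it stood at 37.3, 41.1 and 60 CPM in NV and at 25.5, 24.2 and 26.4 CPM at V1. It was at 5.51, 6.82 and 8.54 CPM at V20 and at 3.18, 3.5 and 3.85 CPM at V40. At V40T10 it was at 5.64, 6.23 and 4.23 CPM. No later group overlapped with NV, and the V40 libraries were all below the V20 and V40T10 libraries.

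Against Chiifu NV, BrFLC2 was 1.82-fold lower at V1, 6.6-fold lower at V20 and 8.57-fold lower at V40T10 (edgeR adjusted p 0.003259, 4.586e-09 and 2.037e-09). At V40 its log2 change was -3.71, the smallest fall among the 4 copies in Chiifu (edgeR adjusted p 5.383e-11). It kept 11.6% of its level before cold at V40T10.

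In LP08, BrFLC2 stood at 6.59, 3.31 and 5.79 CPM in NV and at 2.54, 2.91 and 3.33 CPM at V1. Later values were 1.61, 1.53 and 1.11 CPM at V20 and 1.25, 1.04 and 1.45 CPM at V40. In V40T10 the libraries were at 1.94, 4.53 and 3.71 CPM. The V20 and V40 libraries lay below all NV libraries and overlapped with each other, while V1 and V40T10 overlapped with NV.

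The fall of BrFLC2 in LP08 was 3.67-fold at V20 and 4.18-fold at V40 (edgeR adjusted p 8.272e-06 and 4.637e-06). At V1 it was 1.78-fold (adjusted p 0.01355 in edgeR), and this call was lost without LP08 NV replicate 1, LP08 NV replicate 3 or LP08 V1 replicate 1, with adjusted p-values of 0.09789, 0.05867 and 0.0572. At V40T10 the log2 difference from NV was -0.63 (95% interval -1.17 to -0.08) and was not called in edgeR (adjusted p 0.05753). The mean level there was 64.9% of that before cold. This last call depended on single libraries, with an adjusted p of 0.01763 when NV replicate 2 was left out, 0.02915 when V40T10 replicate 2 was and 0.04996 when Chiifu NV replicate 3 was.

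BrFLC3 gave the widest range of levels. In Chiifu it stood at 76.4, 79.2 and 113 CPM in NV and at 41.1, 36.9 and 47.4 CPM at V1. It was at 1.65, 2.25 and 2.47 CPM at V20 and at 0.129, 0.0449 and 0.0392 CPM at V40, from 3, 1 and 1 counts. After the warm period it was at 0.545, 0.639 and 0.534 CPM. No group overlapped with another, and the V40 libraries held the lowest values.

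In LP08, BrFLC3 stood at 96.2, 93.2 and 82.5 CPM in NV and at 51.4, 44.5 and 44.6 CPM at V1. It was at 6.79, 4.01 and 3.28 CPM at V20 and at 0, 0.26 and 0.649 CPM at V40, from 0, 5 and 13 counts. After the warm period it was at 1.03, 1.88 and 1.02 CPM. Here too no group overlapped with another.

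The log2 change of BrFLC3 at V1 was -1.10 (SE 0.27) in Chiifu and -0.95 (SE 0.27) in LP08 (edgeR adjusted p 0.001311 and 0.005294). At V20 the fall was 41.6-fold in Chiifu and 19.2-fold in LP08. At V40 the log2 change from NV was -10.19 in Chiifu and -8.21 in LP08 (edgeR adjusted p 2.26e-14 and 2.33e-13). It was -10.87 without Chiifu V40 replicate 1, and in LP08 it was -7.61 and -9.44 without V40 replicates 1 and 3 in turn. BrFLC3 alone was called lower from V20 to V40, in both cultivars. The log2 change of that step was -4.82 (SE 0.57) in Chiifu and -3.95 (SE 0.42) in LP08 (edgeR adjusted p 3.546e-05 and 4.114e-05). Few counts lie behind it: it was -5.49 without Chiifu V40 replicate 1, and in LP08 it was -3.35 and -5.17 without V40 replicates 1 and 3 in turn. At V40T10 BrFLC3 was at 0.640% of its level before cold in Chiifu and at 1.44% in LP08.

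BrFLC5 had low counts in every group, 71 or fewer in a library. In Chiifu it stood at 3.4, 2.95 and 4.4 CPM in NV and at 1.31, 1.22 and 1.3 CPM at V1. It was at 0.1, 0.0408 and 0.137 CPM at V20, from 2, 1 and 4 counts, and at 0 in all 3 V40 libraries. In the V40T10 libraries it was at 0.0909, 0.0959 and 0.114 CPM, from 2, 3 and 3 counts. All later libraries were below all NV libraries.

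Against Chiifu NV, BrFLC5 was at least 82.9-fold lower at V40, set against a floor of 3 counts over the group (edgeR adjusted p 1.789e-09). The log2 change was -1.48 at V1 (SE 0.37) and -5.15 at V20 (SE 0.50), with edgeR adjusted p-values of 0.001836 and 2.189e-08. At V40T10 it was -5.07, and the mean level was 2.80% of that before cold.

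In LP08, BrFLC5 stood at 2.62, 2.73 and 3.29 CPM in NV and at 0.944, 0.673 and 0.714 CPM at V1. It was at 0.372, 0.0477 and 0.145 CPM at V20, from 9, 1 and 3 counts, and at 0.192, 0 and 0.0999 CPM at V40, from 4, 0 and 2 counts. After the warm period it was at 0.729, 1.32 and 0.712 CPM. The later libraries lay below all NV libraries, and the V40T10 libraries lay above all V20 and V40 libraries.

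The fall of BrFLC5 in LP08 was 3.70-fold at V1, 14.4-fold at V20 and 27.4-fold at V40 (edgeR adjusted p 0.0004242, 4.928e-07 and 1.746e-07). Without replicate 1 of V20 and of V40 in turn, the log2 changes at these times were -4.83 and -5.67 in place of -3.85 and -4.78. At V40T10 the level was 3.16-fold below NV (edgeR adjusted p 0.001416), at 32% of that before cold.

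The steps between treatments show when each copy moved. From V1 to V20 all 4 copies were called lower in both cultivars, where 15.7% of all genes in Chiifu and 17.5% in LP08 were. In Chiifu this step was 19.0-fold for BrFLC1, 3.63-fold for BrFLC2, 19.4-fold for BrFLC3 and 12.8-fold for BrFLC5. In LP08 it was 3.31-fold, 2.06-fold, 9.93-fold and 3.89-fold in the same order. From V20 to V40, 1 of the 4 copies was called lower in each cultivar, BrFLC3, where 0.104% of all genes in Chiifu and 0.926% in LP08 were. In Chiifu the other 3 copies were not called in edgeR. Their V40 libraries lay below all V20 libraries, but how many of all genes do so was not counted. Their log2 changes were -2.40 for BrFLC1 and -0.99 for BrFLC2 (edgeR adjusted p 0.2764 and 0.1001), and BrFLC5 was at least 2.25-fold lower (adjusted p 0.1813). The calls for BrFLC1 and BrFLC2 depended on the test, with DESeq2 adjusted p-values of 0.03848 and 0.02631, and that for BrFLC2 on Chiifu NV replicate 3, without which the edgeR adjusted p was 0.03038. With limma voom the steps of BrFLC2 and BrFLC5 were called (adjusted p 0.005898 and 0.0295). In LP08 the 3 copies overlapped between V20 and V40.

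During the 10 days of warmth, 3 copies rose in each cultivar, from low levels. In Chiifu BrFLC2, BrFLC3 and BrFLC5 were called higher at V40T10 than at V40, where 24.2% of all genes were called higher, and in LP08 the 3 called were also BrFLC2, BrFLC3 and BrFLC5, where 24.6% were. In Chiifu the log2 change was 0.61 for BrFLC2 (SE 0.25, edgeR adjusted p 0.04992) and 2.93 for BrFLC3 (SE 0.69, adjusted p 0.001105), and BrFLC5 rose at least 2.38-fold (adjusted p 0.006708). The BrFLC2 call lies at the threshold, with adjusted p-values of 0.05464 under DESeq2 size factors in edgeR, 0.05477 with DESeq2 itself, 0.07128 without the filter on low counts and 0.1977 without Chiifu V40T10 replicate 2. It was also lost without any 1 of several other libraries, Chiifu V40 replicates 1 to 3 among them. BrFLC1 had a log2 change of 2.00 in Chiifu (SE 0.86, edgeR adjusted p 0.06026), which DESeq2 called (adjusted p 0.01181), as did edgeR without Chiifu NV replicate 3 (0.02592). Its V40T10 libraries lay above its V40 libraries in CPM, but only just: replicate 1 of each group held 4 counts (0.182 and 0.172 CPM). The rise of BrFLC3 in Chiifu was 3.61 without Chiifu V40 replicate 1.

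In LP08 the rise in warmth was 1.44 on the log2 scale for BrFLC2 (SE 0.30), 2.08 for BrFLC3 (SE 0.50) and 3.12 for BrFLC5 (SE 0.56), with edgeR adjusted p-values of 0.0002956, 0.001265 and 6.896e-05. For BrFLC3 it was 1.48 without LP08 V40 replicate 1 and 3.33 without LP08 V40 replicate 3, and for BrFLC5 4.01 without LP08 V40 replicate 1. BrFLC1 had a value of 0.50 (95% interval -0.33 to 1.33) and its groups overlapped. Of the amount lost between NV and V40, LP08 regained 53.9% for BrFLC2, 29.6% for BrFLC5, 8.71% for BrFLC1 and 1.11% for BrFLC3. In Chiifu these shares were 4.36%, 2.80%, 0.611% and 0.561%. The shares depend on the level before cold, which for BrFLC2 was a mean of 46.1 CPM in Chiifu and 5.23 CPM in LP08. In CPM, the mean of BrFLC2 rose from 3.51 to 5.37 in Chiifu and from 1.25 to 3.39 in LP08. On the log2 scale, unlike in the shares, the rise was larger in Chiifu for BrFLC1 (2.00 against 0.50) and BrFLC3 (2.93 against 2.08). It was larger in LP08 for BrFLC2 (1.44 against 0.61). For BrFLC5 the Chiifu rise began at 0 counts, so its size is not compared. The difference between the cultivars' changes from V40 to V40T10 was not called for any copy (0 of 4, where 14.2% of all genes had a higher and 16.2% a lower change in LP08). With an unadjusted p below 0.05 there was 1, BrFLC2, at a log2 difference of 0.82 (edgeR adjusted p 0.1187), which was 1.12 and called without LP08 V40T10 replicate 1 (adjusted p 0.02302). DESeq2 also called 0 of 4 here.

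Before cold, the cultivars differed most in BrFLC2. At NV, 2 of the 4 copies were called lower in LP08 than in Chiifu and 0 higher, where 24.3% and 20.8% of all genes were. The 3 LP08 libraries of BrFLC2 lay far below the 3 Chiifu libraries, 8.80-fold on average (log2 -3.14, SE 0.26, edgeR adjusted p 3.075e-10). BrFLC3 differed by 0.02 (95% interval -0.52 to 0.56) and BrFLC5 by -0.31 (95% interval -1.03 to 0.41), and for both the libraries overlapped. BrFLC1 was called lower in LP08 (log2 -0.93, SE 0.37, edgeR adjusted p 0.04151) though its libraries overlapped. That call rests on Chiifu NV replicate 3, without which the difference was -0.20 (adjusted p 0.6316). It was also lost without any 1 LP08 NV library, with the spread of NV libraries alone (adjusted p 0.1775), with limma voom (0.2231) and with DESeq2 (0.05211).

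BrFLC2 was lower in LP08 at each of the 5 treatments. Its log2 differences were -3.11 at V1, -2.29 at V20, -1.49 at V40 and -0.67 at V40T10, with edgeR adjusted p-values of 6.27e-10, 2.365e-07, 0.0001754 and 0.03106. The libraries of the cultivars did not overlap up to V40. At V40T10 they overlapped, and the difference was -0.39 without LP08 V40T10 replicate 1 (adjusted p 0.2155). It also missed the threshold without Chiifu V40T10 replicates 1 and 2 in turn and without LP08 V20 replicate 2, with adjusted p-values of 0.09595, 0.1612 and 0.05214.

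BrFLC1 was higher in LP08 from V20 on. At V1 its log2 difference was 0.44 (edgeR adjusted p 0.3604), with the LP08 libraries above the Chiifu libraries, and with the spread of these groups alone the adjusted p was 0.03259. It was 2.97 at V20, 5.35 at V40 and 3.85 at V40T10, that is 7.83-fold, 40.7-fold and 14.4-fold, with edgeR adjusted p-values of 2.396e-05, 2.827e-07 and 4.9e-07. No libraries of the cultivars overlapped at these times. Without Chiifu V40T10 replicate 2 the last difference was 4.68.

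BrFLC3 and BrFLC5 were higher in LP08 late in the series, on less firm values. The log2 difference of BrFLC3 was 0.17 at V1 (95% interval -0.38 to 0.71), 1.14 at V20, 2.00 at V40 and 1.15 at V40T10, with edgeR adjusted p-values of 0.6484, 0.004563, 0.04955 and 0.02297. The V20 call was lost without LP08 V20 replicate 1 (adjusted p 0.07132). The V40 call was lost without most single libraries, with a difference of 0.78 without LP08 V40 replicate 3, and with limma voom, where it was 0.97 (adjusted p 0.3921). The V40T10 call was lost without LP08 V40T10 replicate 2 (adjusted p 0.15), with total counts in place of scaling factors (0.1761) and with limma voom (0.06137).

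BrFLC5 had a log2 difference between the cultivars of -0.72 at V1 and 1.00 at V20 (edgeR adjusted p 0.1545 and 0.226). At V40 it was 2.37-fold higher in LP08 against the floor (edgeR adjusted p 0.009383), a fold that leaves out the counting error of the 6 LP08 counts. Chiifu was at 0 counts there, as was 1 LP08 library. The V40 call was lost without LP08 V40 replicate 1 (adjusted p 0.09735). At V40T10 it was 8.59-fold higher (log2 3.10, SE 0.53, edgeR adjusted p 2.435e-05), with no overlap. In all, 1 copy was called lower in LP08 at V1 and 0 higher, 1 lower and 2 higher at V20, 1 lower and 3 higher at V40, and 1 lower and 3 higher at V40T10. Among all genes, 21.4% were called lower and 21.7% higher at V1, 21.9% and 19.9% at V20, 22.2% and 20.1% at V40, and 31.8% and 26.9% at V40T10. Averaged over the 5 treatments, 3 copies were higher and 1, BrFLC2, lower in LP08, where 34.2% of all genes were higher and 35% lower.

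**Figure D2:**
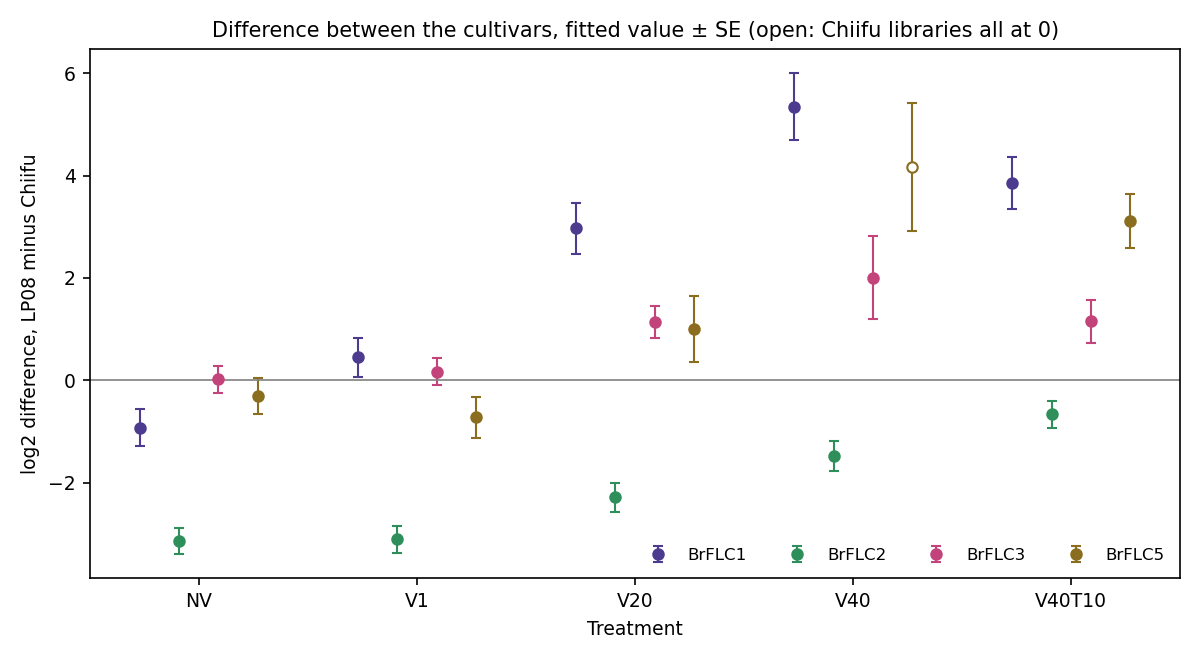
Fitted log2 difference between the cultivars (LP08 minus Chiifu, vertical axis) for each FLC copy at each treatment, with bars of 1 SE and an open point where the Chiifu libraries were all at 0, whose size is not interpretable. BrFLC2 lies below 0 throughout and moves from -3.14 to -0.67, and BrFLC1 climbs to 5.35 at V40.

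The responses to cold themselves were compared between the cultivars by an interaction term. The change from NV was greater in LP08 (a smaller fall) for 0 of 4 copies at V1, 1 at V20, 3 at V40 and 3 at V40T10, where 5.66%, 5.61%, 6.63% and 13.4% of all genes had the higher change in LP08. At V1 DESeq2 also called 0, and 1 copy, BrFLC1, had an unadjusted p below 0.05. BrFLC1 fell less in LP08 by 3.90 on the log2 scale at V20 (SE 0.62), 6.27 at V40 (SE 0.76) and 4.78 at V40T10 (SE 0.63), with edgeR adjusted p-values of 0.0002209, 7.349e-06 and 8.164e-06. Without Chiifu NV replicate 3 these differences were 3.15, 5.55 and 4.09, and all stayed called, and without Chiifu V40T10 replicate 2 the last was 5.61. BrFLC2 fell less in LP08 by 1.65 at V40 and 2.47 at V40T10 (edgeR adjusted p 0.006197 and 2.316e-05), and with limma voom the adjusted p at V40 was 0.0686.

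BrFLC5 fell less in LP08 at V40T10, by a log2 difference of 3.41 (SE 0.64, edgeR adjusted p 0.0003743). At V40 its difference was called (adjusted p 0.02566) with Chiifu at 0 counts, and was lost with limma voom (0.1389), with the spread of the compared groups only (0.09882), without LP08 V40 replicate 1 (0.1513) or without Chiifu V40 replicates 1, 2 and 3 in turn (0.06065, 0.05935 and 0.06483). For BrFLC3 no difference in response was called in edgeR, with values of 0.15, 1.12, 1.98 and 1.13 at V1, V20, V40 and V40T10 and adjusted p-values of 0.8759, 0.08028, 0.1318 and 0.09636. DESeq2 called it at V20 and V40T10 (adjusted p 0.01822 and 0.02472), and edgeR called it at V40 without LP08 V40 replicate 1 (value 2.58, adjusted p 0.0186). At V1 the difference of BrFLC1 was 1.37 (edgeR adjusted p 0.1023), and it was called without Chiifu NV replicate 1 (1.66, adjusted p 0.02486) and without Chiifu NV replicate 2 (1.61, adjusted p 0.04638).

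The copies did not fall together, as shown by the log2 ratio of counts of copies within a library, which needs no scaling factor. Of 24 changes in ratio from NV, taken as the mean over both cultivars, 15 passed an exact two-sided permutation test within cultivars after Benjamini-Hochberg adjustment over the 24, where the smallest p is 0.005. How often ratios between other genes pass this test was not counted, so the number describes these copies only. BrFLC2 gained on BrFLC3 by 2.58 at V20, 6.72 at V40 and 4.81 at V40T10 (exact permutation p 0.005 each, adjusted p 0.009231), and at V1 the value was 0.21 (exact permutation p 0.295). At V40 this was 6.35 in Chiifu and 7.08 in LP08, and in LP08 it was 5.68 without V40 replicate 1, which had 0 counts of BrFLC3. BrFLC2 also gained on BrFLC5 in both cultivars, by 0.85 at V1, 2.32 at V20 and 1.42 at V40T10. No size is given at V40, where BrFLC5 was at 0 counts in 4 of the 6 libraries and the pseudocount sets the ratio. Of the 15 changes, 4 were at V40 and involved a copy at 0 counts in at least 1 library.

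Changes in the ratios of BrFLC1 to other copies had unlike values in the cultivars, a difference that was not tested. The ratio of BrFLC1 to BrFLC2 fell by 2.12 at V20 and 2.63 at V40T10 (exact permutation p 0.005 each, adjusted p 0.009231). The V20 values were -3.52 in Chiifu and -0.71 in LP08, and the V40T10 values -3.81 and -1.45. At V40 BrFLC1 gained on BrFLC3 by 3.88, with 1.44 in Chiifu and 6.32 in LP08 (exact permutation p 0.005). Without LP08 V40 replicate 1, which had 0 counts of BrFLC3, the LP08 value was 4.74 and the mean 3.09, still past the threshold. At V20 the same ratio moved by -0.85 in Chiifu and 1.79 in LP08, and the mean was not called (exact permutation p 0.4). BrFLC3 lost ground to BrFLC5 by 3.40 at V40T10, after gaining 0.64 at V1 (exact permutation p 0.005 each). No change of this ratio is given at V40, where no library had over 13 counts of either copy and 5 values were 0. Within 1 cultivar the exact permutation test of 3 libraries against 3 cannot pass the threshold, so these single values carry no test.

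**Figure D3:**
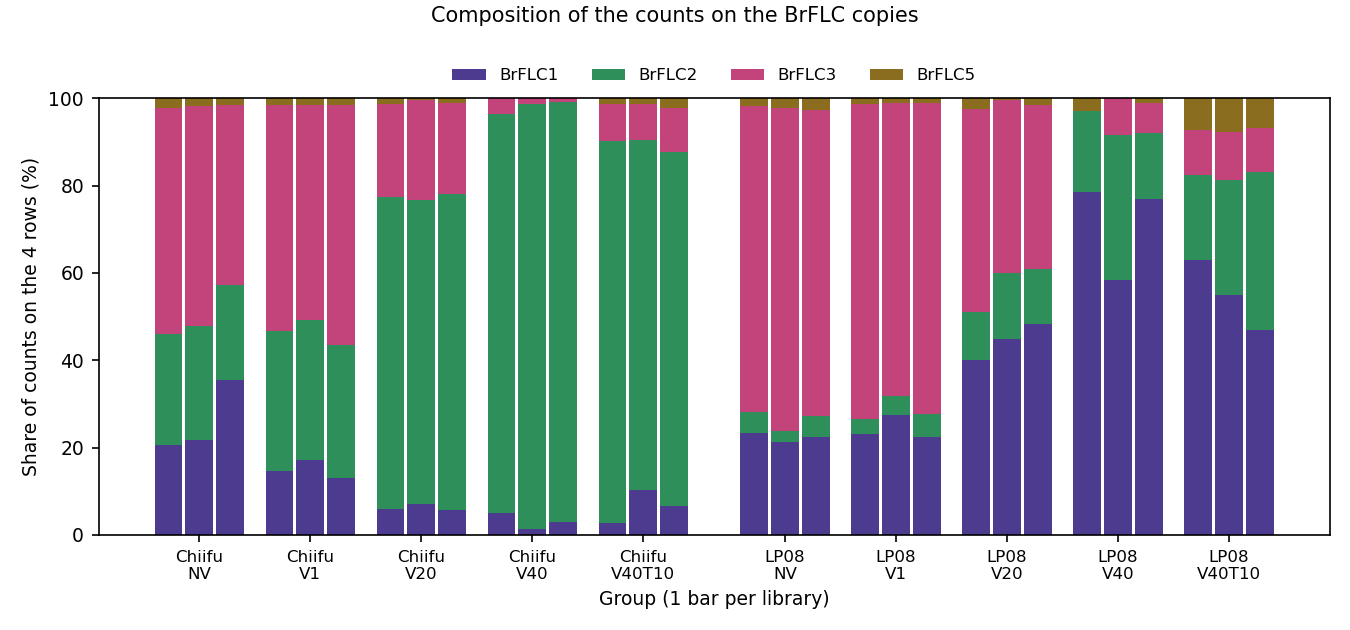
Share (%) of the counts on the 4 FLC rows that fell on each copy, 1 stacked bar per library, by group. The share of BrFLC2 in Chiifu rises from 24.4% at NV to 95.0% at V40, and that of BrFLC1 in LP08 from 22.3% to 71.2%.

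Counts on the 4 rows changed in make-up as well as in sum. In Chiifu NV, 47.7% of them lay on BrFLC3, 26.0% on BrFLC1, 24.4% on BrFLC2 and 1.92% on BrFLC5 (means, n = 3). At V40, 95.0% ± 3.22 (SD, n = 3) lay on BrFLC2, and at V40T10 82.9% ± 3.88. In LP08 NV, 71.3% ± 2.33 lay on BrFLC3 and 4.11% ± 1.29 on BrFLC2. At V40 71.2% ± 11.2 lay on BrFLC1 and 22.4% ± 9.62 on BrFLC2, and at V40T10 55.0% ± 8.0 and 27.3% ± 8.41. In all 15 Chiifu libraries the BrFLC2 share was above 21%, and in LP08 it reached its highest value, 36.1%, at V40T10. Shares are of counts and not per length, so a copy's share is compared across samples, not with other copies.

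The sum of the 4 copies was 193 ± 70.6 CPM in Chiifu NV and 127 ± 9.80 CPM in LP08 NV (SD, n = 3 each). It was 80.3 ± 5.60 and 66.8 ± 4.38 CPM at V1, and 9.78 ± 2.06 and 11.2 ± 3.08 CPM at V20. At V40 it was 3.69 ± 0.276 and 6.44 ± 3.19 CPM, and at V40T10 6.48 ± 1.27 and 12.5 ± 4.03 CPM. The cultivars overlapped at V20 and V40. At NV and V1 every Chiifu library was above every LP08 library, and at V40T10 the reverse held. The V40T10 sum was 3.35% of that at NV in Chiifu and 9.81% in LP08. In Chiifu NV, replicate 3 stood at 275 CPM and replicates 1 and 2 at 148 and 158 CPM.

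The other genes of the pathway for which an ID was at hand were the VIN3 copy Bra020445 and the GIGANTEA gene Bra024536, whose Arabidopsis counterpart acts in the circadian clock and in daylength control of flowering. In Chiifu the VIN3 copy stood at 8.33, 7.74 and 5.81 CPM in NV and at 9.46, 10.1 and 9.27 CPM at V1. It was at 20.8, 19.6 and 14.9 CPM at V20, at 22.9, 30.4 and 23.7 CPM at V40, and at 5.55, 7.73 and 6.29 CPM at V40T10. Its libraries were high at V20 and V40, and overlapped with NV again after the warm period.

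In LP08 the VIN3 copy was at 0 counts in all 3 NV libraries, which allows up to 0.0513 CPM over the group, and at 0.826, 0.336 and 0.381 CPM at V1. It was at 10.9, 12.5 and 14.6 CPM at V20, at 25, 11.8 and 16.1 CPM at V40, and at 0.608, 0.766 and 0.61 CPM at V40T10. So it was near 0 outside the long cold in LP08 and well above 0 at all times in Chiifu.

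Against NV the VIN3 copy rose by 1.33 on the log2 scale at V20 and 1.81 at V40 in Chiifu (edgeR adjusted p 7.076e-05 and 1.514e-06). With limma voom the V20 rise had an adjusted p of 0.0571. From V20 to V40 in Chiifu the log2 change was 0.48, not called in edgeR (adjusted p 0.4989) but called with limma voom (0.04907). In LP08 it rose at least 9.79-fold at V1, 245-fold at V20 and 348-fold at V40. In the warm period it fell by 1.97 in Chiifu and fell by 4.74 in LP08, and the difference of -2.77 between these falls was called (SE 0.38, edgeR adjusted p 7.074e-06). Before cold it was at least 145-fold lower in LP08. At V20 and V40 the log2 difference between the cultivars was -0.54 at both times (edgeR adjusted p 0.05838 and 0.05581), and limma voom called both (0.01114 and 0.006336).

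The GIGANTEA gene rose between NV and V40, in Chiifu from a mean of 48.2 to 283 CPM and in LP08 from 90.0 to 224 CPM (edgeR adjusted p 6.75e-07 and 0.001612). At V40T10 it was at 44.1 and 59.8 CPM, not called against NV (edgeR adjusted p 0.7669 and 0.1234). With Chiifu NV replicate 3 left out it was called lower there in both cultivars (log2 -0.58 and -0.55, adjusted p 0.009225 and 0.00489). After 1 day of cold its mean was already higher, 220 CPM for Chiifu and 201 CPM for LP08 (edgeR adjusted p 3.378e-06 and 0.003643), and its log2 change from V1 to V20 in Chiifu was 0.02 (edgeR adjusted p 0.9914). Both genes fell in the warm period in both cultivars. The Chiifu NV libraries held the GIGANTEA gene at 80.3, 50.2 and 14 CPM, with the lowest value in replicate 3, the library with the highest FLC levels. Whether that has a part in the FLC values was not tested.

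**Figure D4:**
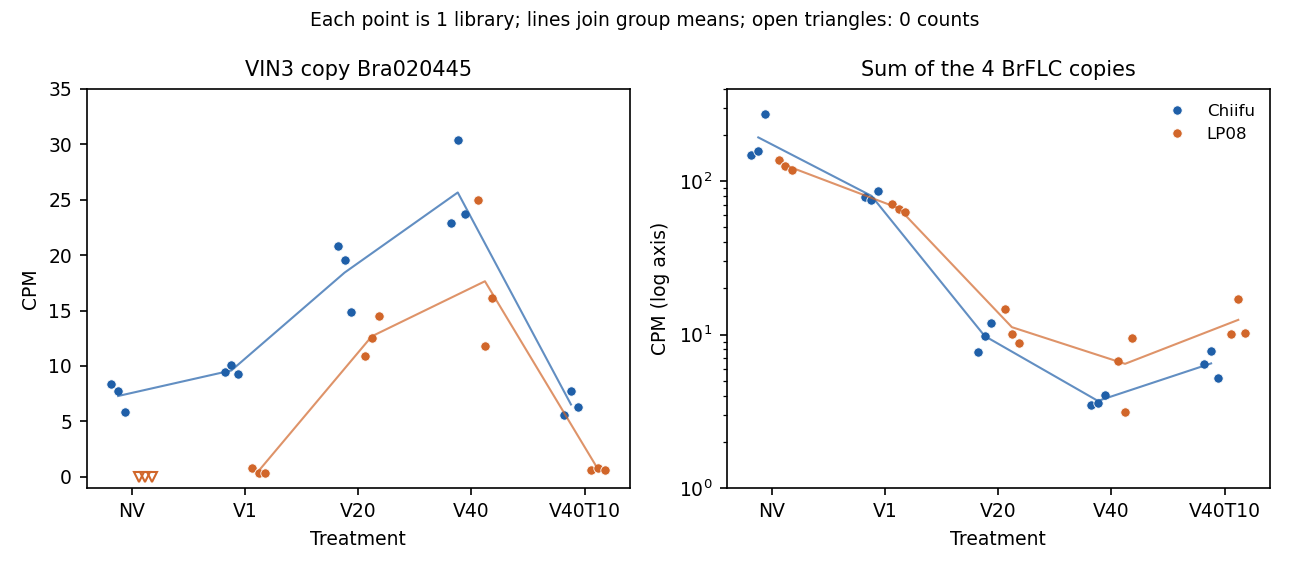
Level of the VIN3 copy (left, CPM) and summed level of the 4 FLC copies (right, CPM, log axis) by treatment, 1 point per library, with lines joining group means and open triangles for libraries at 0 counts. The mean of the VIN3 copy is highest at V40, when the mean FLC sum is lowest. In LP08 the V20 and V40 libraries overlap for both, and the VIN3 copy returns to below 1 CPM at V40T10.

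The profiles of the copies were most alike within Chiifu. Pearson's r of log2 CPM was 0.965 to 0.989 over the 6 pairs of copies within Chiifu and 0.671 to 0.901 within LP08, 15 libraries each. Over all 30 libraries r was 0.884 for BrFLC1 with BrFLC5, 0.859 for BrFLC3 with BrFLC5 and 0.830 for BrFLC1 with BrFLC3. It was lower with BrFLC2, at 0.341 for BrFLC1, 0.560 for BrFLC3 and 0.588 for BrFLC5. Among the 28711 other genes, the copies most like BrFLC1 ranked 3 (BrFLC5), 32 (BrFLC3) and 5447 (BrFLC2). For BrFLC3 the ranks were 15 (BrFLC5), 43 (BrFLC1) and 1333 (BrFLC2). For BrFLC5 they were 13 (BrFLC1), 30 (BrFLC3) and 1357 (BrFLC2). For BrFLC2 the other copies ranked only 2525 (BrFLC5), 2963 (BrFLC3) and 6881 (BrFLC1). These libraries share treatments, cultivar and scaling, so the values are descriptions.

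Among 24468 genes that are no FLC copy and have a mean of at least 1 CPM, the profiles most like the mean of the 4 copies were those of Bra004319 (r = 0.914) and Bra021637 (r = 0.901) over the 30 libraries, both unnamed in the sources used here. In Chiifu, Bra004319 was at 75.5 ± 8.50 CPM at NV, 13.8 ± 1.23 at V40 and 23.1 ± 2.21 at V40T10, and in LP08 at 91.6 ± 11.9, 17.5 ± 3.23 and 39.9 ± 6.76 CPM (SD, n = 3 each). Bra021637 was at 233 ± 80.1, 42.3 ± 7.30 and 52.2 ± 8.76 CPM in Chiifu, against 177 ± 28.7, 46.7 ± 5.05 and 84.4 ± 16.6 CPM in LP08 at these times. Both were picked for this likeness, so their changes are descriptions. In Chiifu neither fell as far by V40 as any FLC copy did, where BrFLC2 kept 7.60% of its NV level. In LP08, Bra004319 (91.6 to 17.5 CPM) fell further by V40 than BrFLC2, which kept 23.8% of its NV level.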

How the data were processed

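The 4 copies, the other genes and the tests were chosen with earlier results of these data known. Per the labels' protocols, total RNA of whole plants was made into libraries with the TruSeq Stranded mRNA kit and read on a NovaSeq instrument. HTSeq, TopHat2, FastQC and edgeR are listed in the submitters' processing notes, and for versions, build and strand setting the entry is the same: not given in the sources used here. As deposited by the authors, each library has 1 table of raw read counts, with 42186 gene rows and 5 summary rows, which stayed out of all sums and tests. Of the listed reads, 6.91 to 11.6% lay on no gene and 2.67 to 7.29% had no unique place. As the copies resemble each other and reads placed at several sites were left out, levels of single copies are uncertain, and reads from antisense transcripts, known at FLC in Arabidopsis, cannot be told apart.

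Tests used R 4.3.3 and edgeR 4.0.16 (quasi-likelihood F test, TMM factors, filterByExpr, 10 groups, 30 libraries, which share 1 spread per gene), with Benjamini-Hochberg adjustment over the 28712 genes tested in each of 25 comparisons and calls at an adjusted p below 0.05. SEs come from the F statistic, and intervals are 95%. Ratios of copies used a pseudocount of 0.5, and log2 CPM for likeness a prior count of 2. Floors use 3 counts. A fold against a floor leaves out the counting error of the other group, which the lower 95% limits from the counts include. The named genes were the 4 copies whatever their result, 2 pathway genes with an ID, and the 2 genes most like the copies' mean profile. A RefSeq table (assembly CAAS_Brap_v3.01) paired 0 of the 6 IDs with a name, so the names and the tissue's markers could not be checked, and no sequence is shown. No libraries were duplicates, as the chi-square of counts per degree of freedom within groups was 6.21 to 109. Alternatives were DESeq2 1.42.0, limma 3.58.1 voom with group weights, other scalings, no filter, a replicate block, the compared groups alone and each library left out. The scripts were tested on simulated data.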

Additional observations from a re-analysis of the deposited data

Results flagged for a closer look

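The responses of 4 genes to treatment differed between the cultivars by the interaction term in edgeR, given here as the log2 change in LP08 minus that in Chiifu. For BrFLC1 it was called at V20 (3.90, edgeR adjusted p 0.0002209), V40 (6.27, adjusted p 7.349e-06) and V40T10 (4.78, adjusted p 8.164e-06). BrFLC2 differed at V40 (1.65, edgeR adjusted p 0.006197) and V40T10 (2.47, adjusted p 2.316e-05). BrFLC5 differed at V40T10 (3.41, edgeR adjusted p 0.0003743) and at V40 (adjusted p 0.02566), where Chiifu was at 0 and no fold is given.

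The VIN3 copy differed at V1, V20, V40 and V40T10 against NV, with edgeR adjusted p-values of 0.001106, 2.91e-08, 2.319e-08 and 3.174e-05, where LP08 NV was at 0 and no fold is given. The V1 difference was lost with limma voom (adjusted p 0.07342). The VIN3 copy also differed between V40 and V40T10 (-2.77, edgeR adjusted p 7.074e-06).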

How the results depend on the processing

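No count of calls over the FLC copies moved by over 1.5 times under any alternative that was run. With each library left out in turn, the 30 calls against NV became 29 to 32, the 16 between consecutive treatments 15 to 18, the 18 between cultivars 16 to 18, the 7 differences in response 6 to 9 and the 15 changes in ratio 14 to 16. With the replicate number as a block these were 30, 16, 16 and 7, and the ratio test had no blocked form. The calls lost under the block were those between cultivars for BrFLC1 at NV (edgeR adjusted p 0.0658) and BrFLC3 at V40 (0.0603). Same-numbered libraries were not seen to deviate together (correlations -0.224 to 0.273, and 12 of 30 correlated best with their own number). No pairing by number was detected, which does not show that there was none. With spread estimated from only the groups compared, the 4 means over treatments were not run, and 7 tests of the copies gave no value because the row failed the filter there, 3 of them between cultivars. Of the 17 tests between cultivars that gave a value, 11 were called, against 12 of the same 17 in the fit of all groups. With limma voom 5 differences in response were called, and with DESeq2 9.

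Values near 0 changed sign. The difference of BrFLC3 between cultivars at NV was -0.041 with total counts, -0.023 with only the groups compared and -0.080 to 0.21 with 1 library left out. The difference in response at V1 was, for BrFLC2, -0.020 without the filter and -0.24 to 0.23 with 1 library left out, and for BrFLC3 -0.090 to 0.24. From V40 to V40T10 it was 0.11 for BrFLC3 and 0.82 for BrFLC5 with limma voom, and -1.53 to 0.42 for BrFLC3 with 1 library left out. From V20 to V40 in LP08, leaving out 1 library gave -0.45 to 0.36 for BrFLC1 and -1.82 to 0.053 for BrFLC5. The ratio of BrFLC1 to BrFLC5 moved by -0.013 at V20 and -0.062 at V40 with a pseudocount of 1, by -0.32 and -0.62 with a pseudocount of 2, and by -0.085 to 0.44 at V20 with 1 library left out. In Chiifu alone it moved by -0.52, -1.16 and -1.20 at V1, V20 and V40, and the ratio of BrFLC1 to BrFLC3 moved by -0.85 at V20 in Chiifu alone and by 0.15 at V1 in LP08 alone. The VIN3 copy at V40T10 against NV in Chiifu was 0.18 with total counts. The GIGANTEA gene in that comparison was 0.18 with total counts, 0.18 with limma voom and -0.58 to 0.45 with 1 library left out, and between cultivars at V40T10 it was -0.080 with total counts. With 1 library left out its difference in response at V40T10 was -1.04 to 0.034, and its step from V1 to V20 in Chiifu -0.10 to 0.13. The cause of these changes was not tested. Scaling moved the median of all genes between groups by up to 0.047 with DESeq2 size factors and 0.52 with total counts. Below about 0.2 CPM a library holds few counts, so levels of BrFLC3 and BrFLC5 at V40 are limited by depth.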
